A study of Macaca mulatta with 32 samples.

Results

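The long intronic circRNAs described here are the entries of the deposited circRNA table that its authors annotated as intronic and whose end lies at least 1000 bases beyond their start on the genome. They numbered 5648 of 52828 circRNAs in the table (10.7%), and 1357 of them passed the study's expression filter. The members were chosen by annotation and length alone, with no measured value. The 1240 intronic circRNAs under 1000 bases were used only for comparison, as were the 34321 exonic and the 11619 intergenic circRNAs.

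The circRNAs were measured in postmortem brain of rhesus macaques in 32 libraries. Cerebellar cortex (CB), hippocampal CA1, dentate gyrus (DG) and 5 areas of neocortex, namely occipital (OC), parietal (PC), temporal (TC), posterior cingulate (PCC) and prefrontal cortex (PFC), gave 4 libraries each. Each library pooled RNA of 2 animals of one sex and age, namely females of 10 years (10F), males of 10 years (10M), females of 20 years (20F) and males of 20 years (20M). The same 4 pools, 8 animals in all, were sampled in all 8 regions, so that any comparison of ages rests on 4 pools. The labels name no treatment. All libraries shared the removal of polyadenylated RNA with oligo-dT, of ribosomal RNA with a depletion kit and of linear RNA with RNase R, an exonuclease that digests linear but not circular RNA. Levels are in the deposited TPM, and positions are those of the table, whose genome build is not given in the sources used here.

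A circRNA forms when the spliceosome joins a downstream splice donor to an upstream splice acceptor, which leaves a back-splice junction that no linear transcript of the gene holds. Most known brain circRNAs join exon ends and lie in the cytoplasm. Circular RNA that holds intron sequence can arise from an intron lariat that escaped debranching or from exons that circularized with the intron between them, and such RNAs are known mainly from the nucleus. A junction read shows which ends were joined but not which of the bases between them are in the RNA, so the lengths given here are distances on the genome.

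For some long intronic circRNAs the study designed divergent primers, which point away from each other on linear RNA and amplify across the junction of a circle. Their sequences are shown because they are the reagents by which these molecules can be told from the linear transcripts of the same genes, and they run 5′ to 3′ with nothing marked in capitals. The primers for RIMS1 (chr4:68575807-68582219) and TNRC6A (chr20:23227042-23246911) belong to circRNAs that were higher in CB, as given with the CB comparison, and those for ARHGAP6 (chrX:9257079-9273621) to one that was higher in TC. The others are from EFCAB2 (chr1:211990748-211992270), PCTP (chr16:40017119-40021014) and STK17A (chr3:82643064-82665415).
RIMS1 forward: tcagtgatgtgtccgccatt
RIMS1 reverse: ctgtcttgttcgctcctcca
TNRC6A forward: aaagaaggaagctgctcaaa
TNRC6A reverse: tcttcttcttgcactaaatccc
ARHGAP6 forward: catcagccagttgacctt
ARHGAP6 reverse: gacctggtgtccttcaca
EFCAB2 forward: agagctgcatgatctgat
EFCAB2 reverse: agcatcctaatgacctga
PCTP forward: tttcccatgtccaacaga
PCTP reverse: cagtcctccagaacacca
STK17A forward: gttcagagacttatgcgacaga
STK17A reverse: ttgcagcaaattctatcccaga

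The libraries held 18813 to 894932 back-splice reads, and 1 library, CB_10F, stood apart by its low depth. By the study's own figures, 5 others had the highest shares of clean and of mapped reads. They were PFC_20F, PCC_20F, PC_10M, CA1_20M and DG_20M. All but PC_10M were of 20 years, so this difference in quality is partly confounded with age. Counts that changed without these 5 are given with the processing. In CB_10F, the shallowest, 1 read was worth 18.7 TPM, against 0.306 TPM in the deepest, PCC_20F. A difference of a few reads in CB_10F is therefore a large difference in TPM, and the CB results are given with and without it. All circRNAs of the cerebellar neuron marker genes summed to 465 to 1105 TPM in the 4 CB libraries and to 21 to 189 TPM in the other 28, which fits the region labels, although 14 of the 28 genes on that list, PCP2 and CBLN1 among them, had no circRNA. The precision given by reads covers counting error only, since amplified copies cannot be told from separate molecules. In tissue samples, fewer cells of a type and less RNA per cell cannot be told apart.

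The long intronic circRNAs were broad in length and mostly rare. Their median length was 10667 bases, with quartiles of 3774 and 31556 bases and a maximum of 199719. The median was 6192 bases for exonic and 10465 bases for intergenic circRNAs, the shortest of which measured 136 and 138 bases. No limit of 1000 bases was applied to these classes, so the medians cannot show that members were longer. The table lists 1775 members (31.4%) under 5000 bases and 258 (4.57%) of at least 100000 bases. The shorter members carried more of the reads, since those under 5000 bases held 42.0% of the members' reads and those of at least 100000 bases 4.49%. The share passing the filter was 25.9% in the shortest and 18.6% in the longest of these length classes.

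Together the members held 337768 of 7159279 back-splice reads (4.72%), less than their share of the circRNAs. A member had a median of 11 reads over all libraries, compared with 15 for exonic, 12 for intergenic and 10 for short intronic circRNAs. Of the members, 3700 (65.5%) were found in 1 library, whereas this was 50.5% of exonic and 71.1% of short intronic circRNAs. Only 152 (2.69%) were found in 16 or more libraries and 4 in all 32, from ENSMMUG00000030711, ARHGEF12, GON4L and ENSMMUG00000029566. The 448 members with over 100 reads (7.93%) held 72.8% of the members' reads, and the 10 with most reads held 23.5%. The filter kept 24.0% of the members, 35.6% of exonic, 27.6% of intergenic and 22.1% of short intronic circRNAs. Of the 1357 members kept, 835 passed only through a total of at least 30 reads, 438 through expression in at least 2 regions and 84 through expression in 1 region, and the 4291 that were not kept are counted but were not tested.

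The annotation as intronic did not mean that a member was separate from the exonic circRNAs of its gene. One end or both of 3173 members (56.2%) coincided to the base with an end of an exonic circRNA, and the end was shared on the acceptor side in 1503 and on the donor side in 1677. Both ends were shared in 7 members only, among them GON4L (chr1:134242016-134357186), whereas 9728 exonic circRNAs shared both ends with other exonic ones. At least 1 end was shared with an exonic circRNA in 72.7% of exonic and 22.2% of short intronic circRNAs. Members with a shared end were longer, with a median of 14082 against 7227 bases, and the reads divided almost equally, with 50.3% in members with and 49.7% in members without a shared end. The median number of reads was 11 and 10, and 24.7% and 23.2% passed the filter. Of 4931 members whose host gene also had exonic circRNAs, 2515 (51.0%) spanned an exonic circRNA of the host entirely, 2054 (41.7%) lay inside one and 854 (17.3%) overlapped none. The rule for intronic annotation is not described in the sources used here, so these members are intronic by the table's label, and most of them join an end that is used by an exonic circRNA to another position.

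**Figure D1:**
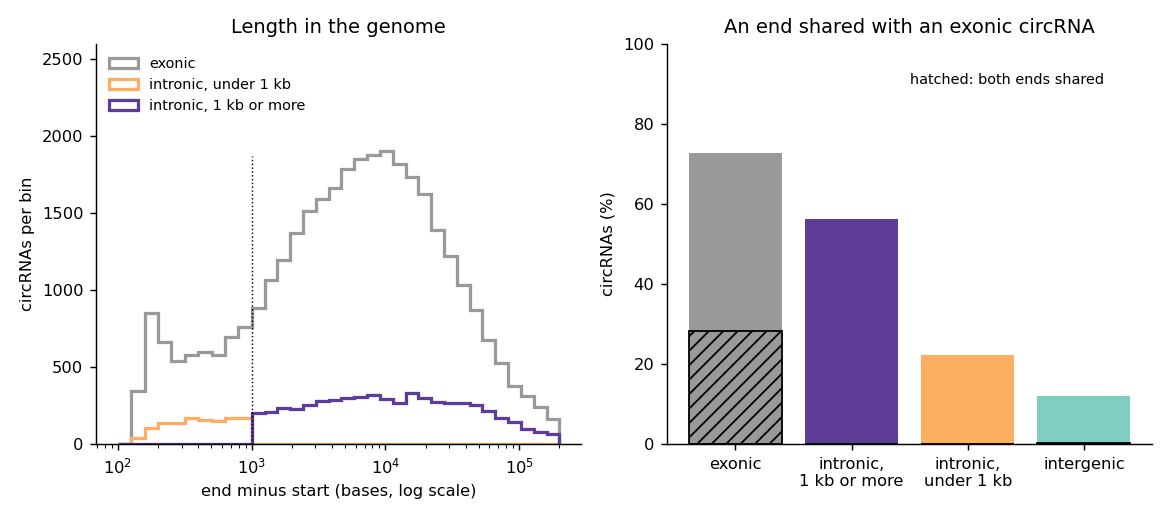
The left panel gives the number of circRNAs per bin against the distance from start to end in bases on a log axis, with a dotted line at 1000 bases, and the right panel gives the percentage of each class with an end at the same base as an end of an exonic circRNA. Hatching marks circRNAs with both ends shared. The long intronic circRNAs spread broadly over 1000 to 100000 bases, with fewer at the long end, and 56.2% of them shared an end with an exonic circRNA, against 22.2% of the short intronic ones.

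Of 4704 members that could be set against the strand of their host's exonic circRNAs, 165 (3.51%) lay on the opposite strand, compared with 14.1% of the short intronic circRNAs. Among these 165, 118 were found in 1 library and 32 passed the filter. Those with most reads were a pair from PCDH7, a protocadherin gene of cell adhesion (chr5:25789067-25811625 with 620 reads and chr5:25811409-25841635 with 476), and one from SBF2 (chr14:62166901-62168622 with 338). At the length limit, members of MRRF and TBC1D22B measured 1000 bases and had 504 and 115 reads, and circRNAs of RNF217 and ENSMMUG00000028732 measured 999 bases, had 14 and 13 reads and were left out. The 3 longest members came from GRM7, a metabotropic glutamate receptor (199719 bases, 11 reads), and from FOXP1 (195904 bases, 2 reads) and NPAS3 (191895 bases, 7 reads), which are genes of transcription factors, and each was found in 1 library.

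The members came from 2612 gene IDs, and the 5505 that carried a single gene ID came from 2508 host genes. One member was found in 1356 of these hosts (54.1%), 5 or more in 247 and 10 or more in 37. Exonic circRNAs were found in 2145 of the hosts (85.5%), and the members held a median of 10.1% of a host's back-splice reads. In 617 hosts (24.6%) they held over 50% of the reads, and 280 of these hosts also had exonic circRNAs.

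Some genes gave circular RNA almost wholly through long intronic circRNAs. FBXO9, an F-box protein of ubiquitin ligases, had 99.6% of its reads in 2 members and 35 reads in 4 exonic circRNAs. MICAL3, an oxidoreductase that acts on actin, had 97.3%, MYO1E, a class I myosin, 95.8%, and CDK19, a kinase of the Mediator complex, 93.7%. Lower shares were found in MAPK10, a JNK kinase of neurons, with 78.5%, and in GON4L and GLT1D1 with 62.3% and 59.2%. The gene ENSMMUG00000030711, for which the gene names used here hold no symbol, had 15 members with 24413 reads and no exonic circRNA.

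The host genes with most members differed in how much of their circular RNA these members made up. ENSMMUG00000000884 on chromosome 6 had 30 members, 13 of them kept, with 6114 reads, and 9 of the 30 shared the end at 64820850. MSRA, which repairs oxidized methionine, had 25 members, of which 4 were kept. DLG2, a scaffold of the postsynaptic density, had 21 with 673 reads, and GALNT17, a glycosyltransferase, had 20 with 721 reads. CDKAL1, which modifies transfer RNA, had 18 with 2160 reads, 11.0% of those in its members and exonic circRNAs together. Members of one host often shared an end, so they are not independent molecules in the counts given for hosts.

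The 10 members with most reads differed in how they were spread over regions. The first came from ENSMMUG00000030711 (chr13:99405727-99408563, 2836 bases), with 22460 reads and from 221 to 2801 TPM, the highest in PCC_10M. Its mean was lowest in PFC, with 371 ± 294 TPM (SD, 4 libraries), and highest in PCC, with 1546 ± 1274 TPM, so that the spread within PCC was larger than the gap between these regions. The second came from RIMS1, the active zone scaffold that couples synaptic vesicles to calcium channels (chr4:68561925-68607531, 45606 bases, 14479 reads), and was highest in CB. ARHGEF12, an activator of RhoA (chr14:118817940-118821268, 3328 bases, 8422 reads), ran from 135 ± 82.0 TPM in PFC to 652 ± 215 TPM in DG. FBXO9 (chr4:52668190-52673447, 5257 bases, 8170 reads) was at 0 in 7 libraries and reached 585 TPM in PCC_20F. GON4L, a regulator of transcription, gave the longest of the 10, with 115170 bases and 5551 reads, and from 81.6 ± 3.14 TPM in OC to 215 ± 162 TPM in CA1. The other 5 came from MYCBP2, a ubiquitin ligase of axons, with 4937 reads, ENSMMUG00000029566 with 4023, NAA38 with 3815, MYO1E with 3752 and MICAL3 with 3602. The member named here by MYCBP2 also carries the gene ID ENSMMUG00000030691, so its host is not certain.

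**Figure D2:**
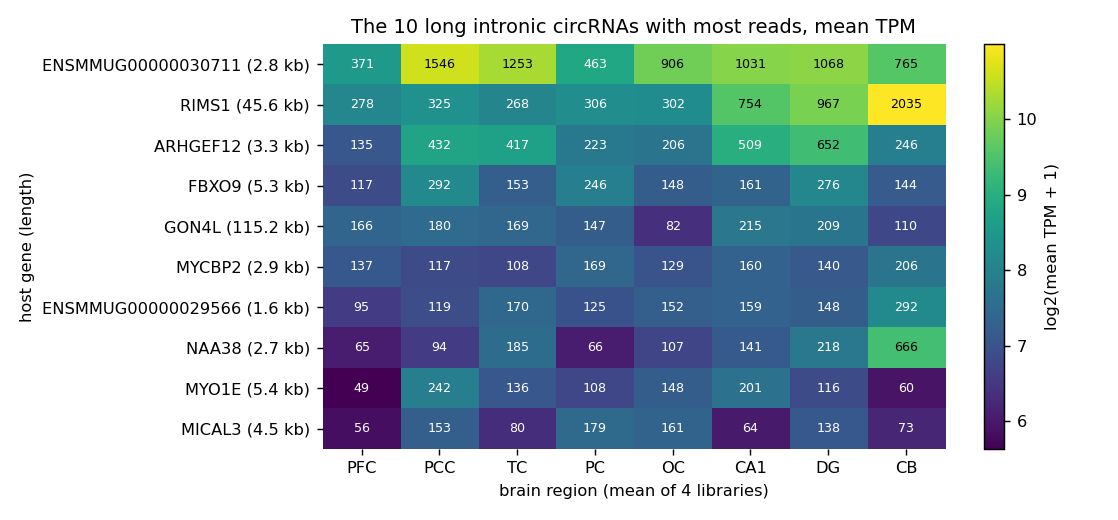
Rows are the 10 long intronic circRNAs with most reads, named by host gene and length, and columns are the 8 regions. Each cell gives the mean TPM of 4 libraries, coloured by log2(mean TPM + 1). RIMS1 reached 2035 TPM in CB, and MYCBP2, NAA38 and ENSMMUG00000029566 also had their highest means there, whereas ENSMMUG00000030711 was highest in PCC and ARHGEF12 in DG.

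A library held from 157 to 861 members, with a median of 445. This number moved with depth, with Pearson's r = 0.66 against log2 reads and Spearman's rho = 0.65 over the 32 libraries, given as a description because the libraries share animals and depth. Members were 6.25% to 7.95% of the circRNAs found in a library, a share that also moved with depth (r = 0.63, rho = 0.63). Their share of a library's reads moved less and in the opposite direction (r = -0.34, rho = -0.40).

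The members held between 4.04% and 5.64% of the back-splice reads of a library. The share in PFC was 4.04, 4.22, 4.28 and 4.35% in the pools 10F, 10M, 20F and 20M, with a mean of 4.22% ± 0.133 (SD, 4 libraries). In DG it was 5.30, 5.05, 5.61 and 5.20%, with a mean of 5.29% ± 0.237. The libraries of PFC and DG did not overlap, whereas those of the other regions, with means of 4.42% (PC), 4.48% (TC), 4.89% (CA1), 4.94% (CB), 4.99% (OC) and 5.18% (PCC), overlapped at least one neighbour in this order. PFC overlapped only TC, while PC lay below CA1, CB, PCC and DG, and TC below DG. The PFC libraries had 244062 to 364927 reads and those of DG 43202 to 273137, and the part of depth in this difference was not tested. The 4 CB libraries, with 4.73 to 5.09%, lay within the range of the others. For the short intronic circRNAs the 4 CB libraries, with 3.60 to 4.14% of the reads, lay above all 28 others, with 1.57 to 3.37%. By age the members' share was 4.71% ± 0.472 at 10 years and 4.89% ± 0.418 at 20 years (SD, 16 libraries each), and it was higher at 20 years in 11 of 16 pairs of libraries of one region and sex. The difference between ages was smaller than the spread among libraries of an age.

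**Figure D3:**
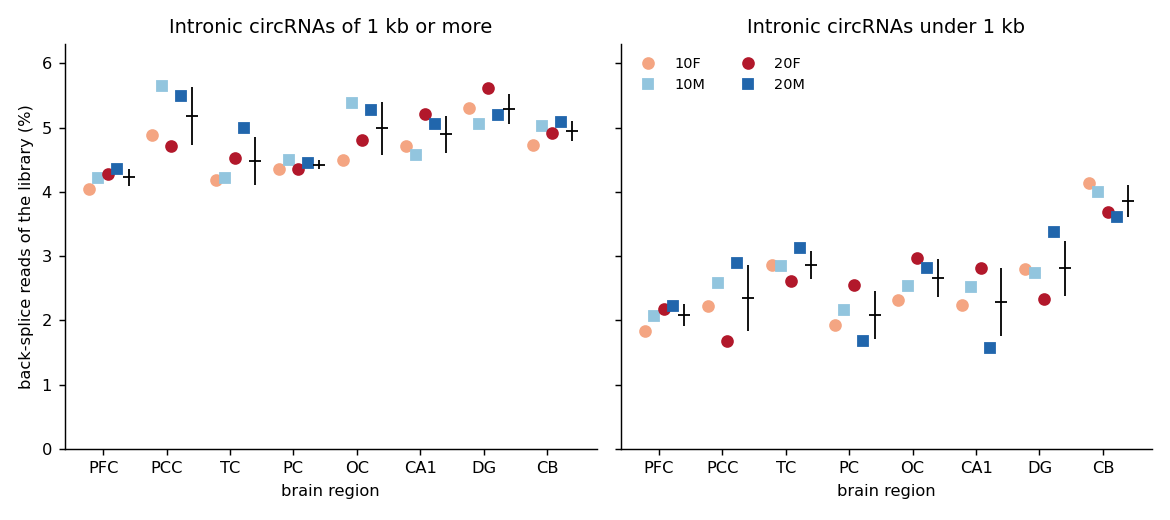
Points are libraries, and the vertical axis is the percentage of a library's back-splice reads in long (left) and short (right) intronic circRNAs. Orange and red circles are the female pools of 10 and 20 years, light and dark blue squares the male pools, and bars are the mean ± SD of 4 libraries. Long intronic circRNAs held 4.04 to 5.64% in all regions, and the CB libraries stood above the others for short intronic circRNAs only.

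Across regions, 3808 members (67.4%) were found in 1 region and 140 (2.48%) in all 8. Of the 1357 kept, 289 (21.3%) were found in 1 region, of which 101 were from PCC, 80 from CA1, 52 from PC and 42 from PFC. Such members could pass the filter only through the total of 30 reads, so these counts depend on library depth. The deepest libraries were PCC_20F and CA1_20M, with 894932 and 811958 reads. Before the filter, 342 members were found only in PCC and 296 only in CA1, against 743 in OC, 689 in PFC and 549 in CB. Of those from OC and CB, 5 and 2 were kept. By the highest of the 8 region means, PCC held 305 kept members (22.5%) and OC 52 (3.83%). Over all 17050 kept circRNAs these shares were 18.6% for PCC and 4.09% for OC. CB held 135 (9.95%), compared with 12.1% over all kept circRNAs.

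To find members that were higher in 1 region, the 4 libraries of each region were compared with the other 28 by a two-sided exact permutation test of the means over all 35960 choices of 4 libraries, and a member was called at p under 0.01. This threshold is not adjusted for the number of circRNAs. The calls were 9 of 1357 in PFC (0.540% of all 17050 kept circRNAs were called there), 11 in PCC (0.727%), 10 in TC (1.04%), 6 in PC (1.28%), 5 in OC (0.452%), 8 in CA1 (0.733%), 5 in DG (0.534%) and 37 in CB (3.20%). The 37 calls in CB were 2.73% of the members, near the share over all circRNAs. In the other 7 regions the calls are few, from 0.368% to 0.811% of the members, and their number changed with the scale of the values, as given with the processing. In simulated data the exact test for CB called 0.724% of the unchanged circRNAs at this p, in either direction.

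In CB, 4 members of RIMS1, 3 of ZNF521, 2 of MSRA and 1 each of GRM4, MCTP1 and 11 further genes were higher than in the other regions, and 1 each of ENSMMUG00000000884 and LRRC4C was lower. limma on log2 values, with Benjamini-Hochberg adjustment over 17050 circRNAs, called 22 members higher (1.62% of 1357, where 1.86% of all were higher) and 2 lower (0.147%, where 0.545% were lower), 24 in all where 2.40% of all circRNAs were called. At an unadjusted p under 0.05 there were 97 members higher and 24 lower, 8.92% of the members and 9.95% of all circRNAs. The median log2 difference was -0.14 both over members and over all circRNAs. The exact test also called 19 of the 22. The members called in CB were thus no larger a share of the long intronic circRNAs than the calls were of all circRNAs.

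RIMS1 gave 4 of the 22. The RIMS1 member with most reads (chr4:68561925-68607531) had 2602, 2579, 977 and 1983 TPM in CB in the order 10F, 10M, 20F and 20M, and a median of 334 TPM and a maximum of 1554 TPM in the other 28 libraries. The CB library of 20F overlapped the highest of the others, and the log2 difference was 2.59 ± 0.59 (SE, limma, adjusted p = 0.00197). The RIMS1 member covered by the primers above (6412 bases) had 56.2, 188, 104 and 169 TPM in CB, none of which overlapped the other libraries, with at most 48.8 TPM, and its difference was 4.38 ± 0.83 (limma, adjusted p = 1.0e-04). The RIMS1 members of CB are not a set apart from the gene's exonic circRNAs. The exonic circRNAs of RIMS1 summed to 9098 ± 1335 TPM in CB and 1120 ± 668 TPM elsewhere (SD, 4 and 28 libraries), and its 13 members summed to 2249 ± 790 and 478 ± 395 TPM, and 6 of the 13 ended at 68607531.

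GRM4, the metabotropic glutamate receptor mGlu4 of cerebellar parallel fibre terminals, gave a member (chr4:33790111-33834450, 44339 bases) with 56.2, 69.1, 33.7 and 96.7 TPM in CB. Outside CB it was listed above 0 only in TC_20F, with 33.0 TPM. The CB libraries lay just above that library, and the difference was 4.53 ± 0.62 (limma, adjusted p = 7.4e-09). The 6 GRM4 members held 87.4% of the reads of the gene's members and exonic circRNAs, and none of its exonic circRNAs passed the filter.

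MCTP1, a membrane protein with C2 domains that bind calcium, gave a member (chr6:91498485-91505812) with 337, 108, 68.4 and 145 TPM in CB and at most 18.2 TPM elsewhere. ZNF521, a zinc finger transcription factor, gave 3 of the 22, and all 6 of its members shared the end at 18337088. The one with most reads (chr18:18330541-18337088) had 318, 101, 22.8 and 132 TPM in CB and at most 25.3 TPM elsewhere, so that only CB_20F overlapped the other libraries. The differences of these 2 members were 5.18 ± 0.74 for MCTP1 and 4.79 ± 0.73 for ZNF521 (limma, adjusted p = 4.2e-08 and 2.6e-07). A second ZNF521 member (chr18:18329279-18337088) had 37.4, 19.5, 13.0 and 30.8 TPM in CB, and one of the other libraries reached 19.7 TPM.

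The other genes with a member called in CB ranged widely in level. NARS2, the mitochondrial asparaginyl-tRNA synthetase (chr14:76683075-76703284), had 37.4, 19.5, 18.5 and 28.6 TPM in CB, overlapping a highest value of 20.9 TPM elsewhere (difference 2.85 ± 0.68, limma, adjusted p = 0.00375). MSRA (chr8:10518649-10596335) had 93.6 TPM in CB_10F and 10.5, 13.0 and 11.0 TPM in the other CB libraries, so that its mean rested on CB_10F (2.90 ± 0.62, adjusted p = 7.2e-04, and 2.21 ± 0.63 without CB_10F, adjusted p = 0.0331). The TNRC6A member with primers above, from a gene of microRNA silencing, was at 42.0 ± 22.3 TPM in CB (SD, 4 libraries), with 3.13 ± 0.76 (limma, adjusted p = 0.00532). SNCAIP, which encodes a partner of alpha-synuclein, had 0, 27.1, 9.78 and 8.79 TPM in CB and was listed at 0 in the other 28 libraries. Of the 10 members with most reads, NAA38 (chr3:155503525-155506212) was also called, with 1142, 708, 265 and 550 TPM in CB and 125 ± 96.0 TPM with a maximum of 345 TPM elsewhere (2.86 ± 0.85, adjusted p = 0.0382).

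The 2 members that were lower in CB were found in nearly all libraries of the cortex. The ENSMMUG00000000884 member with most reads (chr6:64775134-64820850, 45716 bases, 3136 reads) had 0, 0, 7.60 and 11.0 TPM in CB and a median of 80.4 and maximum of 502 TPM elsewhere (difference -3.66 ± 0.95, limma, adjusted p = 0.0114). In OC it had 272, 218, 198 and 275 TPM, all above CB, whereas in DG, with 0, 81.8, 12.3 and 45.7 TPM, it overlapped CB. All 30 members of that gene summed to 412 ± 100 TPM in OC, 411 ± 320 in PCC, 48.5 ± 28.6 in DG and 6.85 ± 9.34 in CB (SD, 4 libraries). LRRC4C, a postsynaptic adhesion protein that binds netrin-G1, gave a member (chr14:31831289-31843451) with 6.01 TPM in CB_10M and 0 in the other CB libraries, and a median of 39.1 TPM elsewhere (-3.59 ± 0.94, adjusted p = 0.0125).

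**Figure D4:**
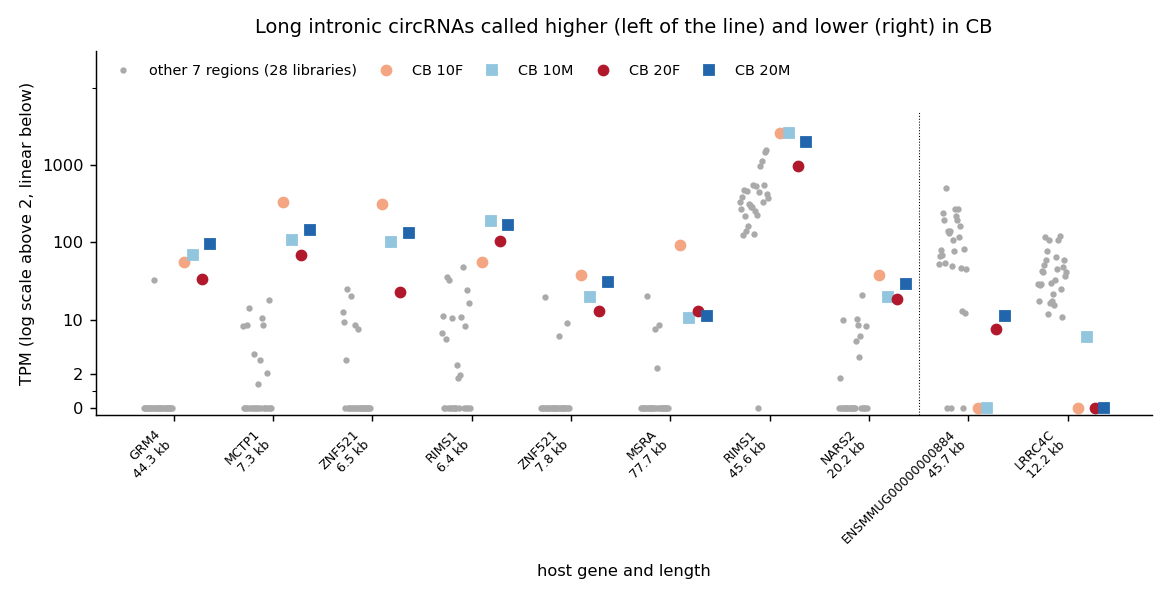
Grey points are the 28 libraries of the other regions and coloured symbols the 4 CB libraries. The vertical axis is TPM on a scale that is logarithmic above 2 and linear below. The 8 members left of the line were called higher in CB and the 2 right of it lower. The highest CB value of MSRA and of MCTP1 is that of CB_10F.

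Without CB_10F, 26 members were called higher in CB, and 13 of the 22 were among them, while over all circRNAs 338 were higher without it and 317 with it. The 9 others of the 22 were no longer called. All 9 were still higher in CB, with log2 differences without and with CB_10F of 2.54 and 2.86 in NAA38, 2.67 and 3.09 in 1 of RIMS1, 1.92 and 2.34 in PDE3B, 1.62 and 2.37 in TRIM33, 1.45 and 2.26 in FANCL, 1.44 and 2.46 in SMYD3 and 1.33 and 2.35 in DYNC2H1. The difference fell most in 1 of ZNF521, to 0.89 from 2.03, and in MTCL1, to 0.70 from 1.88. In CB_10F the 22 members had 0 reads in 3, 2 to 6 reads in 12 and over 6 in 7. The members of GRM4, MCTP1, SNCAIP, COPA and NARS2, 3 of RIMS1, 2 of ZNF521, 2 of MSRA and that of TNRC6A were called both with and without it.

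The hosts of the 22 members numbered 16, and 13 of them had exonic circRNAs that passed the filter. Of the 59 kept exonic circRNAs of these hosts, 12 were higher in CB and 0 lower by the same limma test, while 1.84% of all 12207 kept exonic circRNAs were higher. These 12 came from 4 hosts, namely RIMS1 with 7, MCTP1 with 2, ZNF521 with 2 and MTCL1 with 1. In the other 9 none of the exonic circRNAs was called, with host medians from -0.42 (MSRA) to 0.54 (PDE3B) on the log2 scale. Whether member and exonic circRNAs of a host differed from each other was not tested.

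Of the 22 members called higher in CB by limma, most were in none of the gene groups examined. The presynaptic list held 4 calls in 20 kept members, and the glutamate receptors held 1 in 11, which was GRM4. The 4 presynaptic calls were all from RIMS1, so they stand for a single gene. By the same test 1.86% of all circRNAs were higher in CB and 0.545% lower. The presynaptic release machinery had 72 members with 21831 reads in all, and glutamate receptors had 45. In synaptic adhesion genes 1 of 21 kept members was lower in CB, that of LRRC4C, and none was higher. None of 25 kept members of calcium, sodium and potassium channel genes was called by limma (3 at an unadjusted p under 0.05), and none of 15 of postsynaptic scaffolds (0 at that p), of 8 of ankyrin, spectrin and dystrophin genes (0), of 5 of axon guidance (0), of 5 of calcium release and pumps (1), of 2 of GABA receptors and the inhibitory synapse (0) or of 2 of RNA-binding regulators (0). The cerebellar marker genes had 20 members, of which 4 were kept and 1, that of GRM4, was called, and their median log2 difference was 1.37. Of the markers of forebrain excitatory neurons, oligodendrocytes, astrocytes and microglia, 2, 3, 6 and 1 members were kept and none was called. The glial marker sums over all circRNAs overlapped between CB and the other regions, with 75 to 281 against 26 to 410 TPM for oligodendrocytes and 60 to 178 against 26 to 273 TPM for astrocytes, and forebrain neuron sums were 54 to 150 against 82 to 947 TPM. Their part in the CB differences was not tested.

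Outside CB, the members named for a region differed in how far they were found elsewhere. In the other 28 libraries, ATRNL1 was above 0 in 3, ARHGAP6 in 13 and MAPK14 in 15. In TC, the ARHGAP6 member with primers above, from a GTPase-activating protein for RhoA, had 151, 129, 95.5 and 87.0 TPM, against 22.7 ± 34.2 TPM (SD, 28 libraries) and a maximum of 125 TPM elsewhere (two-sided exact permutation p = 3.3e-04). It was at 0 in all 4 libraries of CA1 and of CB and at 75.2 ± 41.8 TPM in PCC, so that TC and PCC overlapped. A longer EFCAB2 member (chr1:211965993-211992270) than the one with primers had 17.3, 30.9, 23.6 and 14.5 TPM in TC and 4.03 ± 7.21 TPM elsewhere (exact p = 7.2e-04).

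A member of SHISA6, an auxiliary subunit of AMPA receptors (chr16:11124533-11148660), was called in CA1. It had 244, 273, 214 and 0 TPM in CA1 and 26.7 ± 56.1 TPM in the other 28 libraries, where the highest value was 201 TPM, in DG (exact p = 0.00142). The CA1 library of 20M was thus at 0 while the others exceeded every library outside CA1. In DG it had 193, 145, 57.5 and 201 TPM and was not called (exact p = 0.0118). CDC42BPA, a kinase of actin dynamics, was also called in CA1, with 17.8 ± 15.7 against 1.58 ± 3.80 TPM (exact p = 0.00242). In DG, AGPAT5, an enzyme of phosphatidic acid synthesis, had 0, 18.2, 18.5 and 29.0 TPM and 1.81 ± 3.79 TPM elsewhere (exact p = 0.00111).

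In the cortex, PCC had a member of ELAVL2, a neuronal RNA-binding protein (chr15:53297796-53331797), with 33.7, 41.3, 84.0 and 29.5 TPM, against 9.92 ± 15.8 TPM and a maximum of 51.5 TPM elsewhere (exact p = 0.00170), and one of SENP6, a SUMO protease, with 26.7 ± 22.4 against 0.937 ± 3.29 TPM (exact p = 8.6e-04). In PFC, ATRNL1 (chr9:114765710-114821895) had 9.93, 19.1, 17.9 and 3.53 TPM and was above 0 in 3 of the other 28 libraries (exact p = 8.3e-05). NKAIN2, which binds the sodium pump, had 19.1 ± 14.9 TPM there and 0.857 ± 2.48 TPM elsewhere (exact p = 8.9e-04). PC had SNTB2, a syntrophin, with 19.9 ± 8.56 against 3.97 ± 7.01 TPM, and MAPK14, the p38 alpha kinase, with 44.7 ± 36.0 against 8.50 ± 12.2 TPM (exact p = 0.00178 and 0.00270). OC had RSPO2, a Wnt agonist, with 7.69 ± 6.86 against 0.319 ± 1.69 TPM, and a second ENSMMUG00000000884 member (chr6:64775134-64803576) with 8.07 ± 5.61 against 0.489 ± 2.33 TPM (exact p = 0.00236 and 0.00239). The last of these shared its start with the member of that gene that was lower in CB. With 1 library of the region at 0 in NKAIN2, SENP6, MAPK14, RSPO2 and this member, the called regions overlapped the rest.

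Between the ages, few long intronic circRNAs were called, which does not show that few differed. In data simulated with 200 of 17050 circRNAs changed 8-fold with age, the t-test found 85 of them and limma 28. The t-test also called 499 unchanged circRNAs (2.96%), and limma called 0. The simulated libraries were drawn independently, without shared animals. By a two-sided t-test of the 16 libraries of 20 years against the 16 of 10 years, at an unadjusted p under 0.05, 25 of 1357 members were higher at 20 years (1.84%, where 1.52% of all circRNAs were) and 11 lower (0.811%, where 1.45% were), 36 in all (2.65%, where 2.97% were). After Benjamini-Hochberg adjustment over all circRNAs no member passed 0.05 by this test, the smallest adjusted p of a member being 0.698. By limma, with region and sex in the fit, 0 members were higher and 0 lower at an adjusted p under 0.05 (of all circRNAs, 0.00587% were higher and 0% lower, 0.00587% in all), and 31 were higher and 23 lower at an unadjusted p under 0.05, 3.98% of members and 4.55% of all. With a correlation between libraries of one pool in the limma fit, 2 members were higher and 1 lower, where 17 and 10 of all circRNAs were. These 3 came from FBXO9 (log2 difference 2.34 ± 0.54 SE, limma, adjusted p = 0.0225), ARID1B (1.62 ± 0.38, limma, adjusted p = 0.0288) and CTNNA2 (-1.64 ± 0.41, limma, adjusted p = 0.0457), against limma adjusted p of 0.168, 0.211 and 0.273 without the correlation. The standard errors of these 3 were larger without the correlation, at 0.61, 0.43 and 0.46. Age is compared between pools, so a fit that allowed for shared animals would widen the errors. The 3 calls therefore do not rest on such an allowance. The median log2 difference in the fit without the correlation was 0.13 over members and 0.08 over all circRNAs.

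The 6 members with the smallest p among those higher at 20 years came from ARID1B, CACUL1, FBXO9, SMYD3, NCAM2 and TTLL3. FBXO9 (chr4:52668190-52673447), the only one of the 10 members with most reads to be called, had a lowest, median and highest value of 0, 207 and 585 TPM at 20 years and of 0, 141 and 318 TPM at 10 years, with means of 260 ± 150 and 124 ± 112 TPM (SD, n = 16, t-test p = 0.00694). The groups overlapped, but 15 libraries were above 0 at 20 years and 10 at 10 years. ARID1B, a subunit of a chromatin remodelling complex (chr4:106127546-106144701), was above 0 in 9 libraries at 20 years, with 10.3 ± 12.8 TPM, and listed at 0 in all 16 at 10 years (n = 16, p = 0.00321). Of its 9 libraries 7 were of 20M, which held 162 of its 189 reads. CACUL1, a cullin-associated gene (chr9:118350766-118354214), had 14.9 ± 13.9 against 3.02 ± 5.31 TPM (n = 16, p = 0.00337), and SMYD3, a methyltransferase (chr1:210926235-210927541), had 92.7 ± 81.6 against 31.8 ± 27.0 TPM (n = 16, p = 0.00822). In SMYD3 the pool means were 134 TPM in 20F and 51.8 TPM in 20M, and 39.3 and 24.4 TPM in 10F and 10M. NCAM2, an adhesion protein of neurons, was above 0 in 6 libraries of 20 years and in none of 10 years (n = 16, p = 0.0143), and TTLL3, a tubulin glycylase, had 7.30 ± 7.56 against 2.07 ± 3.89 TPM (n = 16, p = 0.0198).

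The members that were lower at 20 years had low levels in most libraries. GRB10, an adaptor of the insulin receptor (chr3:75658427-75659930), had 1.47 ± 4.23 TPM at 20 years and 14.5 ± 19.5 TPM at 10 years (n = 16, t-test p = 0.0137), and 167 of its 229 reads were from 10F. CTNNA2, the alpha-catenin of neurons (chr13:80630904-80634700), had 0.611 ± 2.44 and 16.2 ± 24.5 TPM (n = 16, p = 0.0170), with 30.5 TPM in 10M and 1.79 TPM in 10F. TMEM117 had 4.23 ± 7.11 and 15.1 ± 15.8 TPM (n = 16, p = 0.0172). FBF1, a protein of cilia, had 0.591 ± 1.82 and 7.83 ± 11.7 TPM (n = 16, p = 0.0203), PSPC1, of nuclear paraspeckles, had 0.236 ± 0.945 and 2.90 ± 4.56 TPM (n = 16, p = 0.0295), and ACAP2, a regulator of ARF6, was listed at 0 in all libraries of 20 years and had 10.5 ± 17.6 TPM at 10 years (n = 16, p = 0.0239). In each of these 6 members some libraries of 10 years were also at 0, so the ages overlapped.

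**Figure D5:**
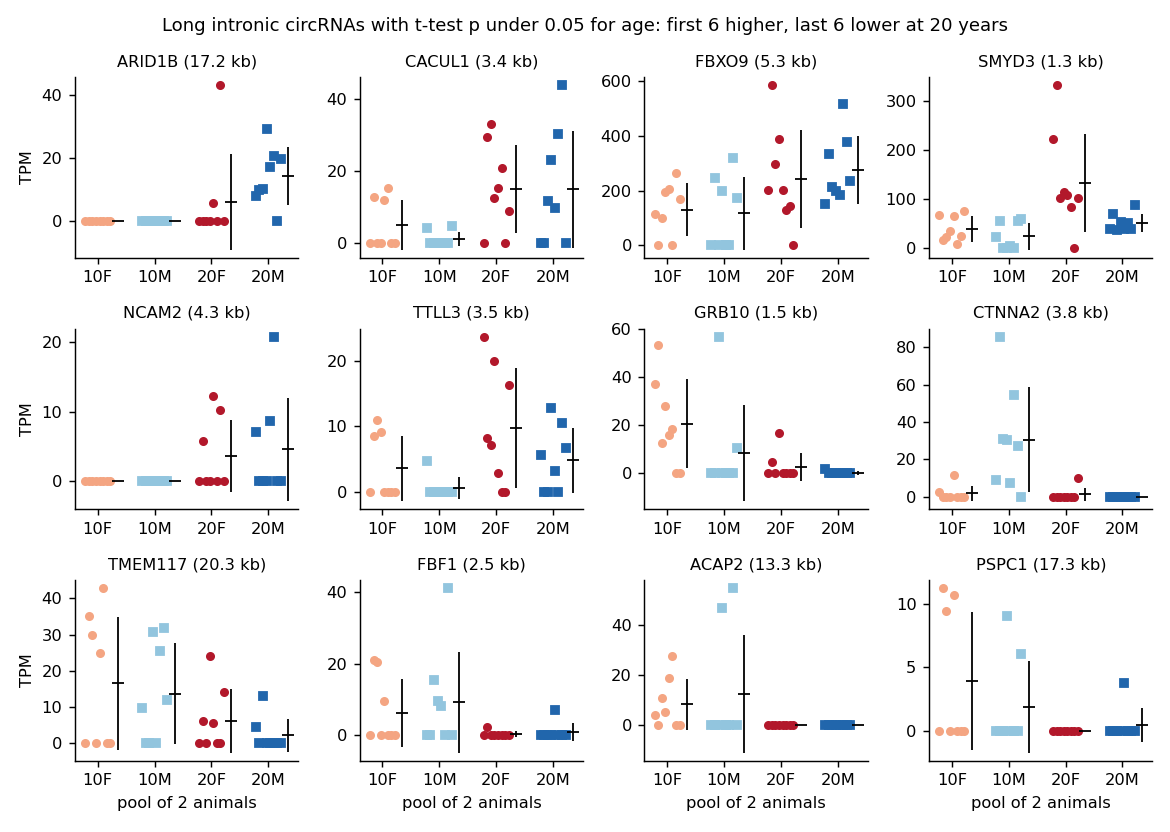
Each panel is 1 long intronic circRNA, with a point for each of the 8 libraries of a pool, the TPM on the vertical axis, and the mean ± SD of the pool as a cross bar. The first 6 members were higher and the last 6 lower at 20 years. ARID1B lay mostly in 20M and CTNNA2 in 10M.

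One pool held over 50% of the reads in 20 of the 25 members that were higher and in 7 of the 11 that were lower at 20 years, a share that also follows the depth of the libraries. In TPM both pools of an age could be alike, as in FBXO9, whose pool means were 244 and 276 TPM in 20F and 20M and 131 and 117 TPM in 10F and 10M. When each pool was left out in turn, no member of the 25 or of the 11 was called every time. Without 20F, 71 members were higher and 3 lower (660 and 51 of all circRNAs), and without 10M, 9 were higher and 33 lower (91 and 501 of all), so that the counts of members and of all circRNAs moved in the same direction. Since each age is represented by 2 animals of each sex that were pooled, pool and age cannot be told apart. All 36 members had the same direction in both sexes, but they were chosen by a t-test over the same libraries of both sexes. That choice favours such agreement, so it is no separate support.

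The age difference itself was compared between the sexes by the limma interaction, which called 1 member (0.0411% of all circRNAs had a more positive age difference in males, 0.0235% a more negative one, 0.0645% in all). It came from CNTNAP5, a contactin-associated adhesion protein (chr13:130979050-130989557). In females its mean was 27.4 ± 26.0 TPM at 10 years and 0.691 ± 1.96 TPM at 20 years, and in males 6.58 ± 12.2 and 18.6 ± 10.3 TPM (SD, 8 libraries each). The interaction was 4.68 on the log2 scale (limma, adjusted p = 0.0276). It was above 0 in 6, 1, 2 and 8 libraries of 10F, 20F, 10M and 20M, so that each sex and age is again 1 pool of 2 animals.

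By gene group, 1 of 11 kept members of the glutamate receptors, 1 of 21 of the synaptic adhesion genes, 1 of 15 of the postsynaptic scaffolds and 1 of 4 of the cerebellar markers was higher at 20 years by the t-test, and 1 of 8 of the ankyrin, spectrin and dystrophin genes was lower. These are unadjusted calls, by which 1.52% of all circRNAs were higher and 1.45% lower. None of the 20 kept presynaptic members and none of the 25 of channel genes was called by the t-test or by limma.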

How the data were processed

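CircRNA libraries of 32 pooled samples were analysed from the table of TPM values deposited by the authors, who trimmed reads with Cutadapt, mapped them with BWA and called junctions of at least 2 reads with CIRI2. Within a library these deposited TPM are whole numbers of back-splice reads times a constant (largest deviation 0.0181 of a read), which gave the reads per library. The study's methods name scaling by size factors, while the table calls its values TPM, so the deposited unit may be reads divided by a size factor. The constants were not simply the inverse of size factors computed from these reads, the product of both varying 3.89-fold over libraries. Rows whose type is intron and whose end minus start is at least 1000 were taken as members. The members and the gene lists were chosen with earlier results of these data known. The study's filter (at least 3 reads in 2 libraries of a region, in 2 such regions or in 1 with 6 libraries in all, or 30 reads in all) kept 17050 circRNAs. All tests were fitted on these and adjusted over them.

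Regions were compared by an exact permutation test and ages by a t-test with equal variances. CB, each other region in turn, age and age by sex were compared by limma 3.58.1 in R 4.3.3 on log2(TPM + 2.455), with Benjamini-Hochberg adjustment. The fit for CB and the other regions held region only, and the age and age by sex fits held region, sex and age. Fold changes on this scale understate those of low members. Libraries of one pool share animals across regions, and the pool was the replicate block in an alternative. P-values of age measure the spread between libraries of 4 pools. Named members were those with most reads, with the smallest p per comparison and the same direction in all pools or both sexes, those of the 6 hosts with most members, those with primers in the study, and the longest and nearest to 1000 bases. From the fixed gene lists the 2 members with most reads were tabulated. The members called in CB beside the 8 with the smallest p, the opposite-strand members, the hosts read mostly through members and CNTNAP5 were chosen after their values were seen.

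Alternatives were other scalings, filters, pseudocounts and tests, and leaving out each pool, each region or 5 libraries with over 95% clean reads. Symbols came from the gene names supplied with the table, and 2241 of 2612 gene IDs had one. Scripts, tested on simulated data, ran under Python 3.11.15 with pandas 2.3.3, SciPy 1.17.1, Matplotlib 3.10.9 and NumPy 2.4.6. Conservation, host mRNA and RT-qPCR were not analysed here, and results for some members that the rule names are not reported here.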

Additional observations from a re-analysis of the deposited data

Results flagged for a closer look

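Among 54 groups of 4 libraries, 8 had a library far from the others by Dixon's ratio of the gap to the range, and chance flags about 1 in 20 groups. In 7 of the 8 the library was CB_10F, where 1 read was worth 18.7 TPM. Its ratio was 0.970 for MSRA (chr8:10518649-10596335, 93.6 TPM against a median of 11.0 TPM in the other CB libraries), 0.830 for DYNC2H1 (168 against 10.9), 0.853 for ZNF521 (chr18:18288533-18337088, 112 against 0), 0.967 for SMYD3 (chr1:210926235-210927490, 131 against 6.60), 0.892 for TRIM33 (74.9 against 6.52), 0.925 for RIMS1 (chr4:68575807-68607531, 131 against 41.3) and 0.893 for MTCL1 (112 against 0). Of these only MSRA was still called higher in CB without that library. For LRRC4C the library was CB_10M, with 6.01 TPM where the other CB libraries were at 0 and a ratio of 1.00.

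The age difference of the CNTNAP5 member differed between males and females by 4.68 on the log2 scale (limma interaction, adjusted p = 0.0276).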

How the results depend on the processing

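No result changed direction. With circRNAs above 0 in at least 16 libraries, the region calls were 0 in PFC, 3 in TC, 3 in PC, 0 in OC, 3 in CA1, 2 in DG and 17 in CB, 36 in all, age calls were 7 higher and 2 lower, and CB calls by limma 5 higher, since fewer members were tested. Without the 5 libraries, PFC had 15 calls, PC 25 and age 7 lower. Reads divided by size factors gave 7 calls in PCC, 5 in TC, 3 in PC, 10 in OC and 13 in DG, and scaling to the same total gave 3 in PC, 11 in OC and 13 in DG. On log2 values PCC had 5 calls, TC 5, OC 9, CA1 4 and age 19 lower. Without a filter limma called 35 higher and 0 lower in CB, and voom on the recovered reads 11 and 1, all 11 of them among the 22. Without CB_10F 1 was lower. A correlation within pools gave 2 members higher and 1 lower with age by limma, with smaller standard errors for these than without it. Members of at least 2000 bases held a median of 4.16% of a library's reads, against 4.77% for all members. The cause of these changes was not tested.

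Leaving out each pool or region in turn gave 3 to 6 calls in PFC, 3 to 10 in PCC, 4 to 8 in TC, 1 to 6 in PC, 0 to 4 in OC, 3 to 7 in CA1, 2 to 5 in DG and 22 to 28 in CB, 51 to 63 in all. Age calls were 9 to 71 higher and 3 to 33 lower by the t-test and 0 to 1 higher and 0 to 0 lower by limma, and CB calls by limma 14 to 23 higher and 1 to 2 lower. With the pool as a replicate block limma gave the same 22 and 2 members. The 24 members called in CB kept their call in 258 repeats under another setting and lost it in 84, and the 12 named for age kept it in 190 and lost it in 41. The planned edgeR test was not run, because the deposited values are TPM. The shallowest library limits what can be seen, since the smallest value it can hold is 2 reads.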
